A study of Mus musculus with 4 samples.

Results

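The 29 genes described here had low RNA levels in mouse CD8 T cells carrying an empty retroviral vector. All 29 were higher in the same kind of cells carrying BATF. They were chosen from 24312 listed genes by their own values in the 4 libraries. Levels are in CPM, a gene's fragments scaled to the total of its library, so that 1 CPM stands for 19.0 to 24.8 fragments. A gene was kept when it had under 2 CPM in both control libraries, at least 1 CPM in both BATF libraries, and a lower BATF value at least 2.5 times the higher control value. These limits left 33 genes, from which Ccr1, Havcr2, Il1r2 and Msc were set aside by name. The difference between the groups is therefore what selected the genes, and it is given below as a description with no test.

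All libraries came from P14 CD8 T cells on a C57BL/6 background, whose transgenic receptor recognises the viral peptide gp33. The cells saw gp33 at 100 ng/ml for 1 day and were transduced with retrovirus made from MSCV-IRES-GFP (MIG) or from MIG-BATF. A further day of activation, 2 days with IL-2 at 10 ng/ml, a sort for CD8 and GFP and 2 days with IL-2 at 1 ng/ml followed. MIG and BATF have 2 libraries each, which the design text calls biological replicates without saying whether they came from separate mice. Both groups carry the GFP vector, so the comparison concerns BATF driven from a virus on top of the cells' own gene (the labels seen here do not say from which species).

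BATF is a basic leucine zipper protein of the AP-1 family that has no activation domain of its own. It pairs with JUN proteins on AP-1 sites and, together with IRF4 or IRF8, on composite AP-1 and IRF elements (AICE). In T cells it is known as an early, activation-induced factor that takes part in effector, Th2, Th17 and follicular helper programmes.

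Transcripts of the introduced gene were counted as a check of the labels, and Batf had 35.7 and 26.8 CPM in MIG against 1339.6 and 931 CPM in BATF, with the higher BATF value in replicate 1. The T cell identity of the libraries was checked on 11 markers, of which 0 passed edgeR's quasi-likelihood test over 13008 genes at an adjusted p under 0.05, 4 had an unadjusted p under that level, and 0 passed in DESeq2. All 11 had a negative log2 fold change (median -0.18), and their summed level was 6849 and 6951 CPM in MIG and 5731 and 6150 CPM in BATF. The 4 with an unadjusted p under that level, Cd3e, Cd8a, Cd8b1 and Ptprc, were lower in BATF in both libraries, with Cd8a at 651 and 759 CPM in MIG and 422 and 597 CPM in BATF. The part of this shift in the results below was not tested. Cd4 lay between 0.484 and 0.789 CPM. The libraries held 19004726 to 24795707 fragments.

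Promoter sequence was looked at for the AP-1 letters that BATF-JUN pairs bind. The windows, from RefSeq on GRCm38.p6, span 250 bases before to 50 bases after an annotated start, and 22 of the 29 genes matched the table. That is under 80%, so the shares serve as a description and not as a check of the whole set. TGANTCA, searched on both strands, occurred in 2 of the 22 genes (9.09%), Met and Tnfsf13b. The share was 8.45% of all 17182 genes with a window and 11.0% of 9112 other genes under 2 CPM in both MIG libraries. The CRE letters TGACGTCA, the spaced AICE (TTTC, any 4 bases, TGANTCA) and the adjacent AICE (GAAA directly before TGANTCA), which both contain the AP-1 letters, occurred in 0 of the 22 genes, against 2.62%, 0.105% and 0.134% of all genes with a window. A count of 2 genes is too small to compare these shares, and genes without a window and distal sites were not looked at.

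The 250 bases before the start are printed for the 2 genes with a match, where capitals mark TGANTCA. In Met the match begins 54 bases before the start (GRCm38.p6, chr6:17463707-17463956, plus strand). In Tnfsf13b it begins 127 bases before the downstream start (GRCm38.p6, chr8:10006383-10006632, plus strand), and the same letters lie 39 bases after the upstream start.
Met: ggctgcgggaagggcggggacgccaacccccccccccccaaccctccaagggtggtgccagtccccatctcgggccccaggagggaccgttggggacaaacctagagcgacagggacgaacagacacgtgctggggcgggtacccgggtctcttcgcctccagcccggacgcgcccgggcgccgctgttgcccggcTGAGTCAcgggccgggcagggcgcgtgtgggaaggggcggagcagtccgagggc
Tnfsf13b: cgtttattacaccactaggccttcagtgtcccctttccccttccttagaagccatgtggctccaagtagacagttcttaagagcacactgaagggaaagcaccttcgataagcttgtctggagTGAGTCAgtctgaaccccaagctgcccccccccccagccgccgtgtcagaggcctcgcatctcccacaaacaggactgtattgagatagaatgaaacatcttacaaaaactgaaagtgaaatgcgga

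Plcl1 and Rgs16 are shown as members without a match, because they reached the highest CPM in BATF after Ermn (GRCm38.p6, chr1:55405696-55405945 and chr1:153740103-153740352, both plus strand).
Plcl1: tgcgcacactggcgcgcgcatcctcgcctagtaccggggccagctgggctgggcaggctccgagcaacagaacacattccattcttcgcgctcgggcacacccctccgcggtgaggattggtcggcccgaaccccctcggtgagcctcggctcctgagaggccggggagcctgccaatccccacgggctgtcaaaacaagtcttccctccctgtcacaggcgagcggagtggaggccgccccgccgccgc
Rgs16: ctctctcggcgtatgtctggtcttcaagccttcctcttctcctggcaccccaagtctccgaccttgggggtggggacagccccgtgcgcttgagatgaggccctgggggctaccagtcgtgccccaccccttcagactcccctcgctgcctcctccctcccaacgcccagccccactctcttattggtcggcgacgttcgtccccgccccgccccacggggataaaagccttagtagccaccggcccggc

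As a group, the 29 genes spanned 0.202 to 1.73 CPM in MIG replicate 1 (median 0.686) and 0.197 to 1.67 CPM in MIG replicate 2 (median 0.737). In BATF they spanned 1.63 to 28.9 CPM in replicate 1 (median 3.47) and 1.28 to 12.4 CPM in replicate 2 (median 3.57). The groups do not overlap for any of them, which the rule requires. Their summed level was 21.2 and 20.5 CPM in MIG and 148 and 120 CPM in BATF, so even in BATF the whole set made up 0.0148% and 0.0120% of a library. The ratio of mean BATF to mean MIG CPM ran from 2.71 to 14.8 with a median of 6.09.

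**Figure D1:**
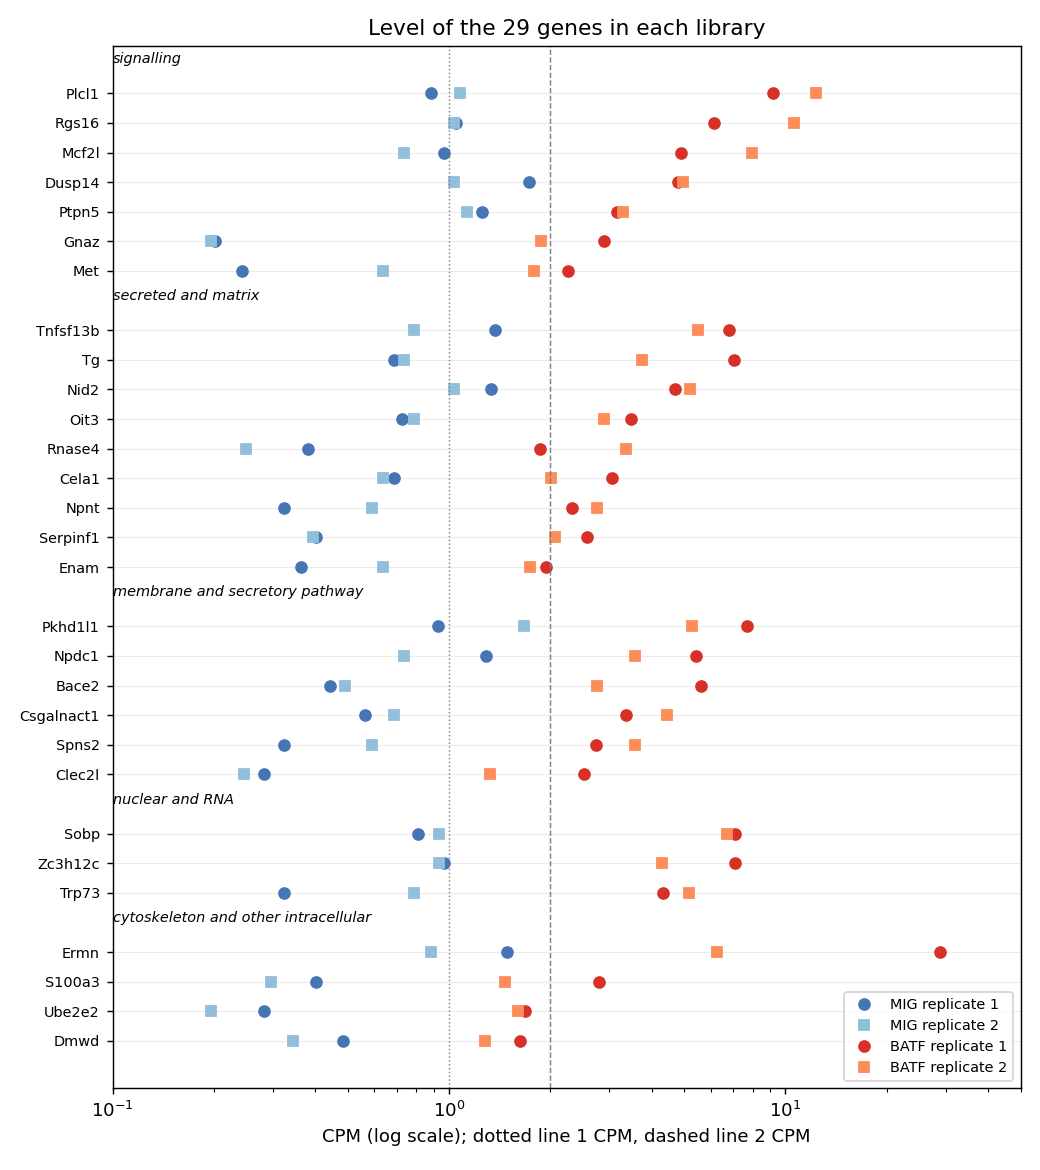
CPM of each gene (log axis) in the 4 libraries, grouped by what the products do; circles are replicate 1, squares replicate 2, blue shades MIG and red or orange BATF, with 1 point per library. The blue points stay under the dashed line at 2 CPM and the BATF points stay above the dotted line at 1 CPM, as the rule demands, and Ermn has the widest gap between its BATF points.

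No gene was at 0 in MIG. Between 4 and 43 fragments were counted per gene in a MIG library and between 28 and 549 in a BATF library, so the control levels are low and not absent. For Gnaz, with 5 and 4 fragments, the exact 95% Poisson interval of the pooled MIG level was 0.0911 to 0.378 CPM, and such intervals cover counting error only. In bulk RNA, fewer cells of a type and less RNA per cell cannot be told apart, so a level of 5 CPM may stand for many cells or a few. All 29 genes passed edgeR's filter on low counts, which the BATF libraries alone can satisfy. In edgeR 19 of them were called higher and 0 lower, beside 0.884% of all 13008 genes called higher and 0.208% called lower, and since the rule used this contrast nothing is read from that count.

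The same limits turned around gave few genes. Under 2 CPM in both BATF libraries, at least 1 CPM in both MIG libraries and a 2.5-fold gap held for 4 genes, namely Dusp16, Myl10, Parm1 and Tgm2. Before names were set aside, 33 of 576 genes that were under 2 CPM in both MIG and at least 1 CPM in both BATF libraries had the gap (5.73%). In the other direction it was 4 of 434 (0.922%). Among all 13867 genes under 2 CPM in both MIG libraries, 0.238% met the limits. The difference in direction was not tested, since 2 libraries against 2 allow no test of a count.

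**Figure D2:**
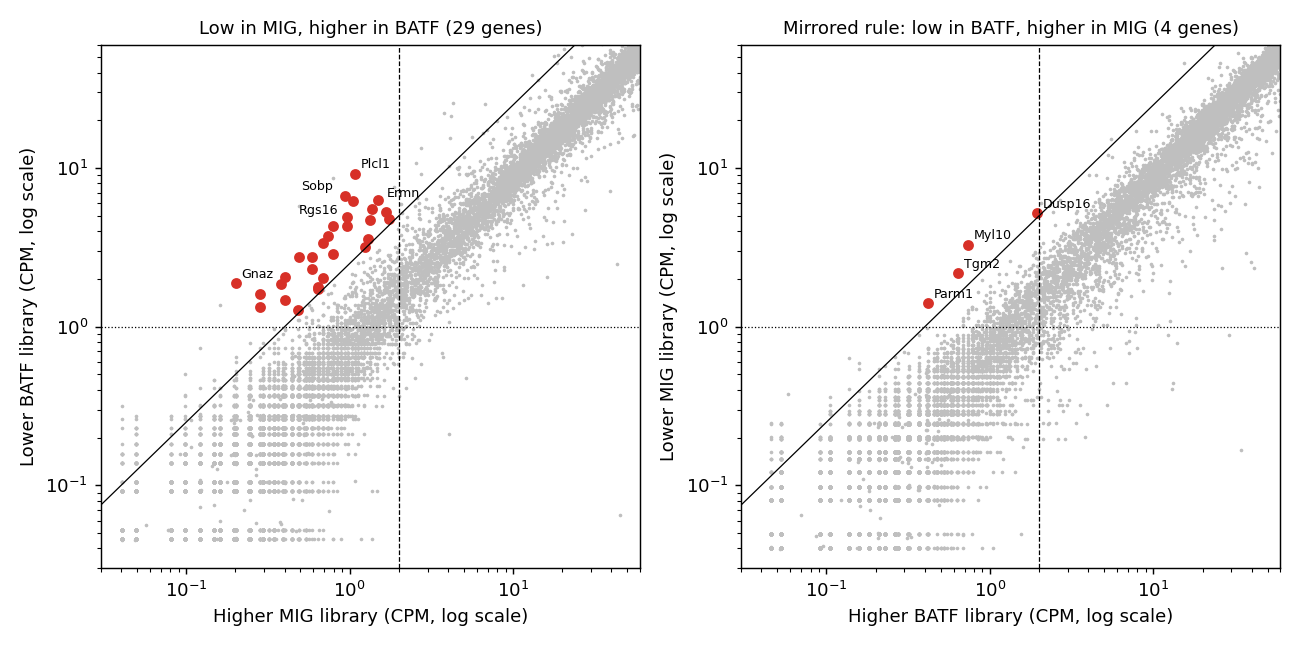
Each gene's higher library in the low group (horizontal, CPM, log axis) against its lower library in the other group (vertical, CPM, log axis), for the rule (left) and the mirrored rule (right); the dashed line is 2 CPM, the dotted line 1 CPM and the solid line a ratio of 2.5. Genes kept are red, 29 on the left and 4 on the right, genes at 0 on either axis are not drawn, and the 4 grey points in the left corner region are the genes set aside by name.

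The limits cut through a continuum. Just inside the ratio of 2.5 lay Ptpn5 (2.53), Dmwd (2.65) and Enam (2.72), and just outside lay Etv5 (2.46), Zfp870 (2.42) and Ica1l (2.27). At the ceiling, Dusp14 reached 1.73 CPM in MIG and was kept, while Nrgn reached 2.06 CPM and was not. At the floor, the lower BATF value was 1.28 CPM in Dmwd and 0.962 CPM in Cyp1a1, which was left out.

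Signalling proteins make up 7 of the 29 genes, and several act on G proteins. Gnaz encodes the alpha subunit of Gz, a G protein of the inhibitory class that is not inactivated by pertussis toxin. It stood at 0.202 and 0.197 CPM in MIG and 2.89 and 1.88 CPM in BATF, a ratio of means of 12.0. Rgs16, which speeds GTP hydrolysis by Gi and Gq alpha subunits, stood at 1.05 and 1.03 CPM in MIG and 6.16 and 10.6 CPM in BATF. Both genes had MIG replicates nearly level and BATF replicates that differed in opposite directions, Gnaz being higher in replicate 1 and Rgs16 in replicate 2.

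Plcl1 encodes an inactive phospholipase C relative that binds inositol phosphates and protein phosphatases. Its 4 values were 0.887 and 1.08 CPM in MIG and 9.21 and 12.4 CPM in BATF, 11.0-fold apart in their means. Mcf2l, a guanine nucleotide exchange factor, stood at 0.968 and 0.737 CPM in MIG and 4.89 and 7.97 CPM in BATF. Plcl1, Rgs16 and Mcf2l were all higher in BATF replicate 2 than in replicate 1, the library with less Batf mRNA of the pair.

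Both phosphatases of the set moved least among the signalling genes. Dusp14, a dual-specificity phosphatase that acts on MAP kinase signalling in T cells, stood at 1.73 and 1.03 CPM in MIG and 4.79 and 4.95 CPM in BATF. Ptpn5, the striatum-enriched tyrosine phosphatase STEP, stood at 1.25 and 1.13 CPM in MIG and 3.16 and 3.30 CPM in BATF. Their ratios of means were 3.52 and 2.71, and their BATF replicates differed by 1.03 and 1.04 times. Met, the receptor tyrosine kinase for hepatocyte growth factor, stood at 0.242 and 0.639 CPM in MIG and 2.26 and 1.79 CPM in BATF, with its lowest MIG value resting on 6 fragments. It is 1 of the 2 genes whose promoter is printed above with an AP-1 match.

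Secreted and extracellular matrix proteins form the largest class, with 9 genes and ratios of means from 3.68 to 8.30. Tnfsf13b encodes BAFF, the TNF family cytokine that keeps B cells alive and is commonly made by myeloid cells. It stood at 1.37 and 0.786 CPM in MIG and 6.79 and 5.50 CPM in BATF. The myeloid and dendritic cell list summed to 34.0 and 35.6 CPM in MIG and 55.1 and 48.9 CPM in BATF over 13 listed genes, with a median log2 fold change of 0.55 over the 4 tested. Itgax made up most of it, at 17.8 and 21.9 CPM in MIG and 34.4 and 31.4 CPM in BATF, and was called by DESeq2 and not by edgeR (adjusted p = 0.0716). Xcr1, a receptor of cross-presenting dendritic cells, stood at 4.24 and 5.99 CPM in MIG and 7.58 and 9.39 CPM in BATF. Itgam went the other way, at 7.58 and 3.24 CPM in MIG and 6.47 and 2.61 CPM in BATF (log2 fold change -0.28). Cd68, also tested, had a log2 fold change of 0.36. Of these 13 genes 9 were under 1 CPM in every library, Lyz2 reached at most 0.344 CPM, and S100a8 and S100a9 were at 0 in 2 libraries each. The part of such cells in the Tnfsf13b result was not tested.

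Matrix proteins in the set are Nid2, a nidogen of basement membranes, Npnt, an integrin ligand of basement membranes, and Enam, a protein of forming tooth enamel. Nid2 stood at 1.33 and 1.03 CPM in MIG and 4.68 and 5.22 CPM in BATF. Npnt stood at 0.323 and 0.590 CPM in MIG and 2.32 and 2.75 CPM in BATF, and Enam at 0.363 and 0.639 CPM in MIG and 1.95 and 1.74 CPM in BATF. In all 3 the BATF replicates were within 1.19 times of each other. Collagen genes of stromal cells stayed low, Col1a1 at 0.137 to 0.526 CPM and Col3a1 at 0.105 to 0.344 CPM. The erythroid, platelet and stromal list summed to 90.5 and 66.5 CPM in MIG and 64.8 and 60.1 CPM in BATF, with 6 of 8 genes under 1 CPM in every library and Pecam1 as most of the sum.

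Tg encodes thyroglobulin, the thyroid hormone precursor. Tg was at 0.686 and 0.737 CPM in MIG and at 7.05 and 3.76 CPM in BATF, with 134 and 82 fragments behind the BATF values. Serpinf1, the secreted serpin PEDF, was at 0.403 and 0.393 CPM in MIG and 2.58 and 2.06 CPM in BATF. Both had nearly level MIG replicates and BATF replicate 1 above replicate 2.

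Rnase4 encodes a secreted ribonuclease and shares exons with Ang, the angiogenin gene, on the same strand. It was the only one of the 29 with fractional fragments, at 0.382 and 0.248 CPM in MIG and 1.87 and 3.36 CPM in BATF. Ang itself was at 0.183 and 0.243 CPM in MIG and 0.445 and 0.352 CPM in BATF, so how fragments were split between the pair leaves both uncertain. Cela1, an elastase of the chymotrypsin class, was at 0.686 and 0.639 CPM in MIG and 3.05 and 2.01 CPM in BATF. Oit3, a zona pellucida domain protein known from liver, was at 0.726 and 0.786 CPM in MIG and 3.47 and 2.89 CPM in BATF.

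Membrane proteins and enzymes of the secretory pathway account for 6 genes. Spns2 exports sphingosine 1-phosphate, the lipid that guides lymphocytes out of lymph nodes, and stood at 0.323 and 0.590 CPM in MIG and 2.74 and 3.57 CPM in BATF. Its exons overlap those of Mybbp1a on the opposite strand, a gene at 307 to 338 CPM in the 4 libraries, and since no label seen here says whether the libraries were stranded, fragments of the 2 genes may not be separable where they overlap. Pkhd1l1, the large fibrocystin-like receptor, stood at 0.928 and 1.67 CPM in MIG and 7.68 and 5.27 CPM in BATF. Per length it was among the lowest, at a mean of 0.506 FPKM in BATF.

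Bace2, an aspartyl protease related to the beta-secretase of amyloid precursor protein, stood at 0.444 and 0.491 CPM in MIG and 5.63 and 2.75 CPM in BATF. Csgalnact1, which starts chondroitin sulfate chains in the Golgi, stood at 0.565 and 0.688 CPM in MIG and 3.37 and 4.44 CPM in BATF. The ratios of means were 8.96 for Bace2, the highest of the class, and 6.24 for Csgalnact1. Npdc1, a neural membrane protein, stood at 1.29 and 0.737 CPM in MIG and 5.42 and 3.57 CPM in BATF. Clec2l, a C-type lectin-like protein, stood at 0.282 and 0.246 CPM in MIG and 2.53 and 1.33 CPM in BATF. Npdc1 had the lowest ratio of the class, 4.43, and shares exons with Entpd2 on the same strand, which was at or below 0.504 CPM in every library.

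Nuclear and RNA-binding proteins are 3 of the 29. Trp73 encodes p73, a transcription factor of the p53 family, and stood at 0.323 and 0.786 CPM in MIG and 4.31 and 5.17 CPM in BATF. Zc3h12c encodes a CCCH zinc finger ribonuclease of the Regnase family, whose members degrade inflammatory mRNAs. Its values were 0.968 and 0.933 CPM in MIG and 7.10 and 4.30 CPM in BATF. Sobp, a nuclear zinc finger protein needed for inner ear development, stood at 0.807 and 0.933 CPM in MIG and 7.10 and 6.69 CPM in BATF. Sobp combined a ratio of means of 7.92 with BATF replicates within 1.06 times of each other.

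Ermn, an actin-binding protein of oligodendrocytes, had the largest and the least even difference of all. It stood at 1.49 and 0.884 CPM in MIG and at 28.9 and 6.27 CPM in BATF, so that the BATF replicates differed 4.60 times. Its mean ratio of 14.8 rests on replicate 1. The neighbouring gene Cytip, at 247 to 285 CPM in MIG and 282 to 371 CPM in BATF, did not pass (log2 fold change 0.30, adjusted p = 0.577 in edgeR). No list of oligodendrocyte genes was used. The neuronal list, of another cell type, summed to 6.78 and 6.34 CPM in MIG and 10.1 and 9.39 CPM in BATF over 5 genes. Tubb3 made up most of that sum, and Snap25 stayed at or below 0.211 CPM. The median log2 fold change of the list was 0.57 over the 3 tested. In edgeR 0 of them were called and 1 had an unadjusted p under 0.05. The part of neural cells in the results for Ermn, Npdc1 and Ptpn5 was not tested.

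The remaining intracellular genes were low. S100a3, a small calcium-binding protein, stood at 0.403 and 0.295 CPM in MIG and 2.79 and 1.47 CPM in BATF. Ube2e2, a ubiquitin-conjugating enzyme, stood at 0.282 and 0.197 CPM in MIG and 1.68 and 1.60 CPM in BATF. Dmwd, a WD repeat protein encoded beside the myotonic dystrophy kinase gene, stood at 0.484 and 0.344 CPM in MIG and 1.63 and 1.28 CPM in BATF. Dmwd is the gene nearest the floor of 1 CPM.

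Levels per transcript length put the genes in another order. By the deposited FPKM, which also divides by transcript length, mean BATF levels ran from 0.308 in Met to 5.17 in Ermn, with a median of 1.24. S100a3 (4.09), Tnfsf13b (4.03), Rgs16 (3.87) and Dusp14 (3.85) followed Ermn in FPKM, and Npdc1 (3.38) and Cela1 (2.75) came next. Mean FPKM reached 1 in 21 of the 29 genes in BATF and in 1 of them, Dusp14 at 1.10, in MIG. For comparison, 10356 of the 24312 listed genes had a mean FPKM of at least 1 in BATF.

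How far the BATF replicates lay apart is given as a description, since the rule used these values. The higher BATF value was over 1.5 times the lower in 12 of the 29 genes (41.4%), against 12.6% of 3473 other genes in the same range of mean BATF CPM. The median of that ratio was 1.32 in the 29 genes and 1.15 in the others. The others were not matched on level within that range, and their median of mean BATF CPM was 6.66 against 3.90 in the 29 genes, and counting error is larger at lower counts. BATF replicate 1 was the higher one in 18 genes and replicate 2 in 11, and 62.1% compares with 54.3% of the other genes. Of the 12 uneven genes, Ermn, Bace2, S100a3, Clec2l, Tg, Zc3h12c, Gnaz, Npdc1 and Cela1 were higher in replicate 1 and Rnase4, Rgs16 and Mcf2l in replicate 2. These shares carry no test, and the uneven genes went in both directions.

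**Figure D3:**
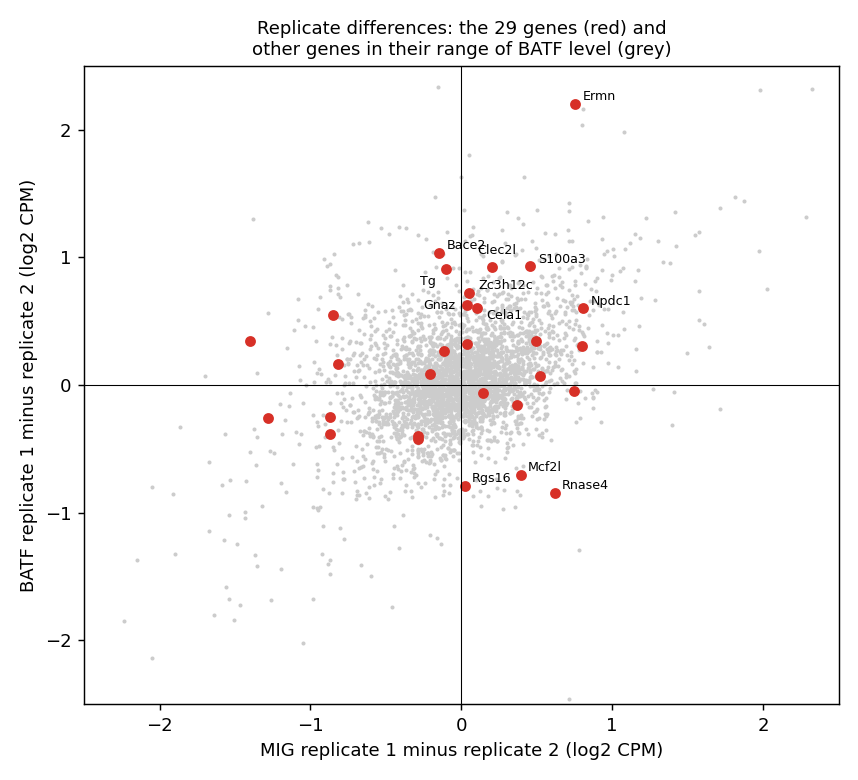
Difference between replicates 1 and 2 (log2 CPM) in MIG (horizontal) and in BATF (vertical) for the 29 genes in red and, in grey, other genes in the same range of mean BATF CPM with a fragment in every library; each point is 1 gene. Genes whose BATF values differ by over 1.5 times are named, 9 of them above the horizontal line at 0 and 3 below it, and Ermn lies farthest out.

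Close relatives of the 29 genes were examined next, because the rule that chose the 29 did not use the relatives' values. The 35 paralogs cover 22 of the 29 genes and were listed by family knowledge once the 29 were known. Earlier results of these data were known too, so the counts depend on which paralogs were listed. Of the 22 that could be tested, 2 rose and 0 fell by edgeR's quasi-likelihood test, and 20 did not pass, with 8 of the 22 at an unadjusted p under 0.05 and 2 called by DESeq2, while 1.09% of all 13008 genes passed in either direction. Their median log2 fold change was 0.10, beside -0.01 over all genes tested.

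Per length, several near-silent genes had a paralog that was well expressed in both groups and did not pass. Plcl2, the paralog of Plcl1, lay between 30.0 and 33.5 FPKM in the 4 libraries, where Plcl1 had means of 0.152 FPKM in MIG and 1.67 FPKM in BATF. Trp53, the paralog of Trp73, lay between 123 and 151 FPKM, and Gnai2, the inhibitory G protein alpha subunit that is related to Gnaz, between 458 and 535 FPKM. Zc3h12d, Csgalnact2, Spns1 and Ube2e1 showed the same arrangement. Their log2 fold changes were 0.04, -0.07, -0.17 and 0.10, with adjusted p between 0.876 and 0.984 in edgeR's quasi-likelihood test. In these families a weakly expressed member was measured beside an abundant one whose level was not shown to differ. Not every expressed paralog was this level. Ube2e3 (paralog of Ube2e2) and Ptpn7 (of Ptpn5) had log2 fold changes of 0.40 and 0.28, and Bace1 (of Bace2) had -0.71. In edgeR's quasi-likelihood test their unadjusted p was under 0.05 and their adjusted p was 0.192, 0.304 and 0.176.

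The listed S100 paralogs were the exception. S100a4, a calcium-binding protein of migrating cells, stood at 244 and 217 CPM in MIG and 500.3 and 470.1 CPM in BATF (a log2 change of 1.07 with an adjusted p of 0.0093 in edgeR). S100a6 stood at 468 and 544 CPM in MIG and 768 and 802 CPM in BATF (a log2 change of 0.64 with an adjusted p of 0.0295 in edgeR). Both rose, and S100a3 belongs to the same gene cluster. Other S100 genes with values here were near 0 and not tested. S100a16 and S100a2, listed next to S100a3, reached at most 0.105 and 0.0916 CPM in any library. S100a8 and S100a9 reached at most 0.0526 and 0.0983 CPM. The call of S100a6 was lost without BATF replicate 2 (adjusted p = 0.0826, with 0.000116 to 0.019 in the other edgeR fits that left out a library).

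Other relatives were themselves near-silent. Gnai1 stood at 0.403 and 0.246 CPM in MIG and 2.105 and 0.962 CPM in BATF (log2 change 2.18, adjusted p = 0.164 in edgeR). Spns3, which lies beside Spns2, stood at 0.484 and 0.295 CPM in MIG and 1.31 and 1.10 CPM in BATF (log2 change 1.59, adjusted p = 0.194 in edgeR). Rgs8 stood at 0.766 and 0.639 CPM in MIG and 1.63 and 1.79 CPM in BATF (log2 change 1.27, adjusted p = 0.183 in edgeR). None of these 3 passed the test with all libraries, and they were named after their values were seen. The other near-silent paralogs that could be tested were Trp63, Pkhd1, Zc3h12b and Dusp18. They did not pass either, with log2 fold changes of 0.35, -0.07, -0.53 and -0.60. The result for Gnai1 turned on the setting, with an edgeR adjusted p of 0.0294 without BATF replicate 2 and 0.0341 with no filter on low counts, against 0.729 without BATF replicate 1.

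**Figure D4:**
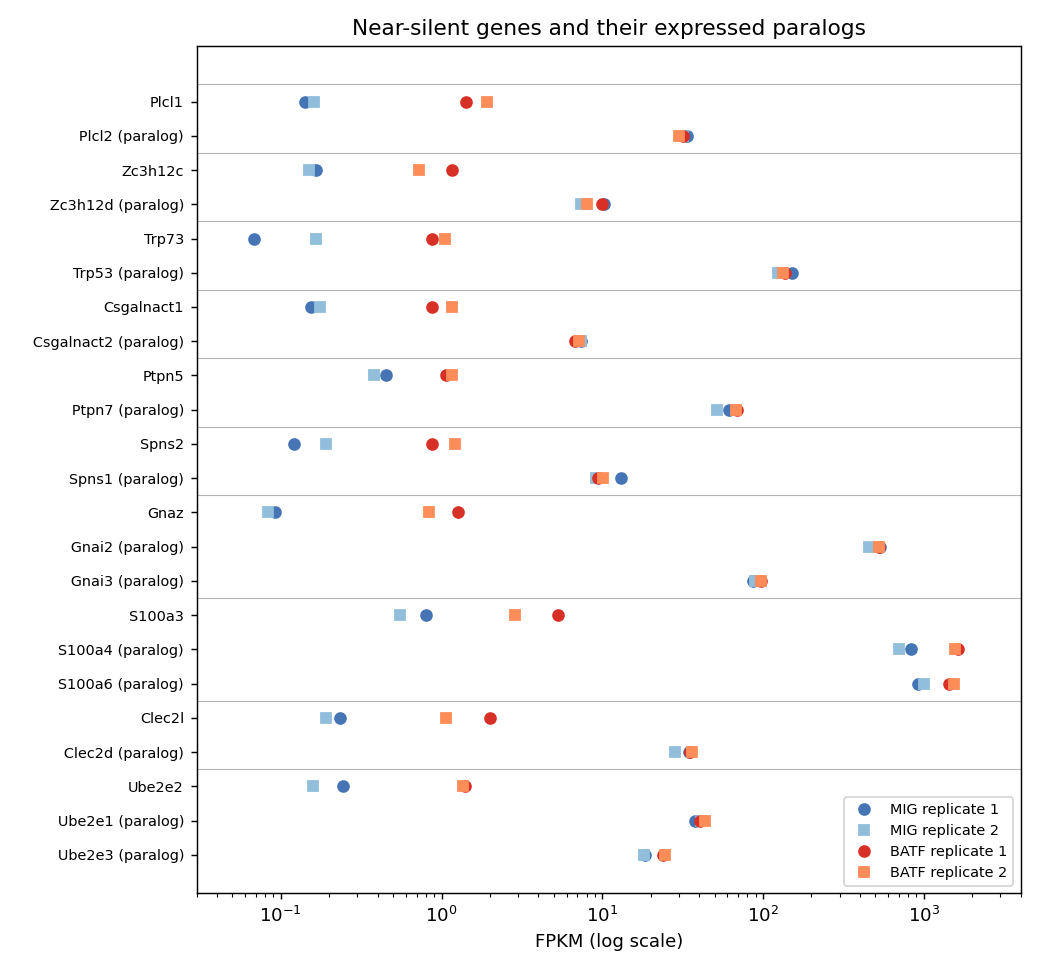
FPKM (log axis) in each library for the genes that have a paralog with a mean of at least 20 CPM in MIG, and for those paralogs; circles are replicate 1, squares replicate 2, blue shades MIG and red or orange BATF. BATF and MIG points lie apart for the near-silent genes, as the rule demands, and closer together for the paralogs, of which S100a4 and S100a6 rose.

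Receptors, ligands and other partners of the proteins were looked at in the same way. Of 11 such partners 6 were tested and 5 were too low to test, and 0 were called by edgeR, with 3 at an unadjusted p under 0.05, and 0 by DESeq2. The BAFF receptor gene Tnfrsf13c stood at 11.4 and 12.2 CPM in MIG and 8.84 and 7.10 CPM in BATF (edgeR adjusted p = 0.236), and Tnfrsf13b, which encodes TACI, at 5.08 and 3.98 CPM in MIG and 5.42 and 6.59 CPM in BATF (edgeR adjusted p = 0.619). Hgf, the ligand of Met, was between 0.161 and 0.368 CPM. Sphk2, a kinase that makes the lipid exported by Spns2, lay between 44.5 and 54.3 CPM, and Itga8, an integrin chain that binds nephronectin, at or below 0.835 CPM.

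The genes were not direct neighbours of one another, but Ube2e2 and Nid2 on chromosome 14 flank the same listed gene, Gm5458. The 29 genes lie on 14 chromosomes with at most 3 on any 1. No gene of the set has another as its next listed gene in RefSeq order. Of the 57 listed genes next to them, 28 were tested and edgeR called 0 higher and 0 lower, with a median log2 fold change of 0.05. At an unadjusted p under 0.05 there were 6, of which 4 were higher in BATF and 2 lower, and DESeq2 called 0. Higher among these were Spns3 beside Spns2, Capza2 beside Met, Mcu beside Oit3 and Sla, listed after Tg. Mcu stood at 10.2 and 8.99 CPM in MIG and 16.8 and 11.8 CPM in BATF. Sla stood at 111.5 and 91.7 CPM in MIG and 138 and 124 CPM in BATF. The order goes by start position, so a gene listed after another may lie within it. Whether Sla fragments were counted for Tg was not tested. Lower was Phf20l1, listed before Tg, at 98.1 and 99.6 CPM in MIG and 79.66 and 80.01 CPM in BATF. Mx1 beside Bace2 was lower as well, at 8.35 and 7.42 CPM in MIG and 5.74 and 5.36 CPM in BATF. Exons of 6 of the 29 genes overlap those of another listed gene in GENCODE M21, on the same strand in 3 and on the opposite strand in 3. Apart from Mybbp1a, the overlapping listed genes were at or below 0.504 CPM in every library. With annotated genes that are not listed counted too, 12 of the 29 genes have an exon overlap, and unlisted partners have no level here. Nid2 overlaps Rtraf on the opposite strand, which is not listed under that name. Whether Rtraf fragments were counted for Nid2 was not tested.

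Among T cell programmes, only Rgs16 stands in 1 of the lists used here. Of 16 inhibitory receptors and exhaustion genes tested, 3 rose by edgeR, Havcr2, Lag3 and Rgs16, and 0 fell, with a median log2 fold change of 0.43. Rgs16 is 1 of the 29 genes and Havcr2 met the same 3 limits before it was set aside by name. Both were therefore chosen on this contrast, and Lag3 is the only edgeR call that was not. DESeq2 called Ctla4 as well, and 5 of the 16 had an unadjusted p under 0.05 in edgeR. Over all 13008 genes, 1.09% passed edgeR in either direction. Lag3 stood at 39.8 and 35.8 CPM in MIG and 86.4 and 81.9 CPM in BATF. Of 10 Th2, ILC2 and tissue regulatory T cell genes tested, Pparg and Dusp4 rose by edgeR and 0 fell (median 0.68). DESeq2 called Nfil3 in addition, and 6 had an unadjusted p under 0.05 in edgeR. Of 6 Th17 and Tfh genes tested 0 passed, with 1 at an unadjusted p under 0.05 and 0 by DESeq2 (median -0.28). Of 17 AP-1, BATF and IRF factors tested, Batf and Maf rose by edgeR and 0 fell (median -0.04). In that list DESeq2 added Batf3, and 7 had an unadjusted p under 0.05 in edgeR. Batf is the introduced gene, so its rise was set by the design, and Maf, a basic leucine zipper factor, stood at 12.7 and 21.2 CPM in MIG and 60.2 and 101.9 CPM in BATF. The B cell list summed to 13.3 to 18.9 CPM in the 4 libraries, the mast cell, basophil and eosinophil list to 3.87 to 9.63 CPM, and the NK and gamma-delta T cell list to 1.74 to 3.03 CPM. The CD4 and regulatory T cell list summed to 42.7 and 39.4 CPM in MIG and 61.3 and 52.8 CPM in BATF, mostly Zbtb7b and Ikzf2, and 0 genes of the marker lists passed the edgeR test, while DESeq2 called Itgax of the myeloid list and Zbtb7b of the CD4 list. At an unadjusted p under 0.05 edgeR had 4 T cell identity genes and 2 myeloid genes. It had 1 each of the B cell, mast cell, CD4 and neuronal lists, and 0 of the other marker lists.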

How the data were processed

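Poly(A) RNA of 4 libraries was sequenced, and the submitters' processing notes name TopHat2 2.1.1, Cufflinks 2.2.2, Cuffdiff and mm9. No source used here gives the annotation or strandedness. The deposited table gives, per the file headers, estimated counts, unscaled fragments per gene and library from the authors' Cuffdiff, of which 97.6% were whole (equal to 0 decimals). It also gives the authors' deposited FPKM, used here for levels per length. The table numbers replicates 0 and 1 and the titles 1 and 2, and the lower was read as the lower, so numbers only name libraries.

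CPM used the raw column sums. For the test, estimated counts were rounded, filtered with filterByExpr, scaled by TMM and fitted in edgeR 4.0.16 (R 4.3.3, glmQLFit and glmQLFTest, no covariate), with Benjamini-Hochberg adjustment over 13008 genes and a threshold of 0.05. With 2 libraries a group, p-values rest on the spread shared across genes and reflect only how these libraries vary, perhaps technically. DESeq2 1.42.0, other scalings, no filter, a replicate block and leaving out each library were alternatives. The edgeR step was tried on simulated counts with the same dispersion in every gene and no shared replicate differences. That trial could not cover the uneven genes described here. The 29 genes, the lists and the relatives were chosen with earlier results of these data known. The rule for values by library covered the 15 members of highest BATF CPM, the 10 of largest ratio of lower BATF to higher MIG CPM, any at 0 in MIG and any in a list; the other members' values were added after they were seen. Lists covered T cell identity, B cells, myeloid and dendritic cells, mast cells with basophils and eosinophils, NK and gamma-delta T cells, CD4 and regulatory T cells, erythroid with platelet and stromal cells, neurons, and 4 T cell programmes. Neighbours came from RefSeq order and overlaps from GENCODE M21, both on GRCm38, which is not the files' build, so no gene coordinates are printed from them.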

Additional observations from a re-analysis of the deposited data

How the results depend on the processing

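TMM or DESeq2 scaling of CPM also kept 29 genes, 28 of them shared, and the deposited FPKM kept 22, of which 14 were shared. A ratio of 2 kept 47 genes and a ratio of 4 kept 17, where the mirrored rule kept 1. With a library left out the rule asks less, so all 29 stayed by construction: it kept 53 or 61 without MIG replicate 1 or 2, and 43 or 84 without BATF replicate 1 or 2, and the mirrored rule kept 9 to 15. The median log2 ratio of the 29 genes (mean CPM plus 0.1) was 2.40, 1.46 with 1 CPM added and 2.16 in FPKM, and 2.25 to 2.49 with a library left out. Over all genes edgeR called 115 higher and 27 lower. It called 266 and 83 with no filter, and DESeq2 called 253 and 92. Leaving out a library gave 192 to 320 higher and 55 to 269 lower, the most without MIG replicate 2, and these fits take the single library left in a group to be as variable as the other group. Of the 29 genes, 19 were called in the fit with all libraries, 29 with no filter, and 17 to 27 with a library left out. Without MIG replicate 1, 4 of the 19 calls were lost, and 1 without BATF replicate 2. The log2 fold change stayed positive in all 29 in the 8 alternative fits, which the rule's gap between the groups fixes and which is no sign of stability, and that of Ermn fell from 3.85 to 2.38 without BATF replicate 1. With the replicate number as a block, edgeR called 916 higher and 588 lower and 29 of the 29, a fit with 1 residual degree of freedom. In it Gnai1, Spns3 and Rgs8 passed as well (adjusted p = 0.000505, 0.0238 and 0.0269). Differences between replicates 1 and 2 correlated between the groups at 0.183 over the genes tested and at 0.559 over those of mean 5 CPM or more. No label ties the 2 replicate numbers to a mouse or day, and whether replicates were shared between the groups was not tested. Depth limits the low values, since 3 fragments stand for 0.121 to 0.158 CPM. The cause of these differences was not tested.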

Other observations

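The 4 genes of the mirrored rule were low in BATF. Myl10, a myosin light chain, stood at 3.75 and 3.29 CPM in MIG and 0.737 and 0.641 CPM in BATF. Dusp16, a dual-specificity phosphatase that acts on JNK and p38, stood at 5.20 and 5.31 CPM in MIG and 1.95 and 1.51 CPM in BATF, whereas Dusp14 lies among the 29 genes that were higher in BATF. Tgm2, a transglutaminase, stood at 2.18 and 5.16 CPM in MIG and 0.474 and 0.641 CPM in BATF, and Parm1 stood at 1.41 and 1.47 CPM in MIG and 0.421 and 0.0916 CPM in BATF. The rule chose these genes by the same contrast, so their values are a description, and the lower value of Parm1 rests on 2 fragments.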
